A study of Mus musculus with 10 samples.

Results

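The positive transcription elongation factor P-TEFb, its inhibition by the 7SK particle and the super elongation complex were followed here through 9 genes, Cdk9, Ccnt1, Ccnt2, Hexim1, Larp7, Aff1, Aff4, Ell and Ell2. They were chosen by name, as the kinase, its cyclins, its regulators and subunits of the complex, and not by their values. All 9 were among the 21230 genes of the deposited table. The question was whether the mRNA levels of this machinery differed in the striatum of mice treated with SPI-24, a small molecule directed at the elongation factor Spt5.

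Striatum was punched from the brains of BACHD mice that had received SPI-24 (5 mice) or vehicle (5 mice) by osmotic pump for 8 weeks, and the RNA was sequenced. The vehicle, called DMSO here as in the labels, was a mixture of DMSO and polyethylene glycol. For this pump treatment the authors report very little remaining SPI-24 in the brain and no detectable change of Htt protein. They also report improved motor tests in the treated mice, but no improvement of anxiety symptoms. Between the groups they list a small number of differentially expressed genes (DESeq2, fold change of at least 2). None of the genes named above is on that list. BACHD mice are on the FVB/N background and carry a full-length human mutant HTT transgene on a bacterial artificial chromosome, beside their own Htt gene. Both groups carry the transgene, so the samples hold no wild-type group, and the labels give neither sex nor age. The paper describes this treatment as started in early-stage mice, with both sexes in each group, but does not say which mice were sequenced. Each library is labelled as a separate biological replicate and is named below by group and replicate number.

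RNA polymerase II pauses shortly after it starts a gene, held by the negative elongation factor NELF together with DSIF, the complex of Spt4 and Spt5. P-TEFb releases it. The kinase CDK9, bound to cyclin T1 or cyclin T2, phosphorylates Spt5, NELF and the tail of the polymerase. Much of the cell's P-TEFb is kept inactive on the noncoding 7SK RNA, to which HEXIM1 brings the inhibition and LARP7 the stability of the RNA. Active P-TEFb is carried to genes in part by the super elongation complex, in which AFF1 or AFF4 is the scaffold and ELL or ELL2 raises the speed of the polymerase.

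No difference between SPI-24 and DMSO libraries was called for any of the 9 genes. By limma with Benjamini-Hochberg adjustment, 0 of 9 had an adjusted p under 0.05, beside 0 of 15871 genes tested (0%). At an unadjusted p under 0.05 the count was also 0 of 9, against 2.23% of all genes tested. The groups overlapped for all 9 genes, whereas over all genes tested they did not overlap for 0.517%. For 6 of the 9, the 95% interval of the fold change lay inside a 2-fold change in either direction, which held for 37.9% of all genes tested. That share includes genes down to a mean of 10 normalized counts (reads scaled for depth), whereas the 9 averaged 197 (Larp7) to 2498 (Aff4). The wider intervals were those of Ccnt2, Larp7 and Ell, and each of these had at least 1 library with few or no reads.

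The libraries held 5.48 to 46.9 M reads assigned to genes, with 7.38 to 29.6 M in SPI-24 and 5.48 to 46.9 M in DMSO. A normalized count is the read count divided by a factor for the depth of its library. In SPI-24 replicate 2 and DMSO replicate 3, the shallowest libraries, a single read was worth 2.77 and 3.42 normalized counts. Of the 11207 genes that averaged at least 100 normalized counts, 288 had no read in SPI-24 replicate 2 and 700 had none in DMSO replicate 3, where SPI-24 replicate 5 had 222 such genes and the other 7 libraries 8 to 58. Markers of medium spiny neurons, the main neurons of the striatum, were present in all libraries, but their summed level ran from 6938 to 126580 normalized counts in SPI-24 and from 7328 to 117505 in DMSO. Of the 14 medium spiny neuron markers tested, 4 (Drd1, Adora2a, Tac1 and Gpr6) had no read in at least 1 library. Thalamic neuron markers summed to 8299 to 38148 in SPI-24 and to 1592 to 37648 in DMSO. In SPI-24 replicates 1, 3 and 4 and DMSO replicates 2, 3 and 5 the thalamic sum was above the medium spiny neuron sum. In the other libraries it was below. In DMSO replicate 3 the thalamic sum was 37648, against 7328 for medium spiny neurons. Cortical and hippocampal markers summed to 3220 to 18248 in SPI-24 and to 1071 to 9960 in DMSO. Choroid plexus markers summed to 5981 to 45503 in SPI-24 and to 5611 to 230435 in DMSO, with 8 of 9 lower in SPI-24, as were 4 of 5 ependymal and 5 of 7 microglia markers. Higher in SPI-24 were 8 of 9 markers of thalamic neurons, 7 of 8 of cortical and hippocampal neurons, 8 of 8 of oligodendrocytes, 5 of 7 of astrocytes, 5 of 6 of endothelial cells and 7 of 14 of medium spiny neurons, and none of these markers was called. When choroid plexus and ependymal markers entered the fit as a covariate, 0 of the 9 genes were called, beside 0 of 15871 genes tested. In such punches, fewer cells of a type and less RNA per cell cannot be told apart.

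Promoters of all 9 genes were present in the RefSeq table for GRCm38.p6, in 10 windows of 300 bases, since Aff1 had 2. They held 61 to 79% G and C, against a median of 52.7% over the 32851 promoters of the table. A GC box (GGGCGG, both strands) was found in 9 of the 10 windows and in 35.7% of all promoters, and a CCAAT box in 5 windows and 37.4% of all. The letters TATAA occurred in the window of Hexim1 alone, against 24.9% of all promoters. The cyclic AMP response element TGACGTCA, found in 1.79% of all promoters, occurred in the windows of Larp7 (2 matches) and Ell2 (1 match). Printed here are the stretches ahead of the annotated starts of Hexim1 and Larp7, the most abundant of the 9 per length and one of the least even. The first is chr11:103116075-103116230 (+ strand, GRCm38), with TATAA in capitals, beginning 27 bases before the annotated start. The second is chr3:127553350-127553599 (- strand), with TGACGTCA in capitals, beginning 121 bases before it. The other match in the Larp7 window lies past the annotated start, outside the printed stretch. No measurement of these libraries bears on what binds there, and the matches are a description of the letters.
Hexim1: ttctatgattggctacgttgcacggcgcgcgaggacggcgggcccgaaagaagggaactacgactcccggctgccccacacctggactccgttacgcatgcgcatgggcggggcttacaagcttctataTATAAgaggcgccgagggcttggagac
Larp7: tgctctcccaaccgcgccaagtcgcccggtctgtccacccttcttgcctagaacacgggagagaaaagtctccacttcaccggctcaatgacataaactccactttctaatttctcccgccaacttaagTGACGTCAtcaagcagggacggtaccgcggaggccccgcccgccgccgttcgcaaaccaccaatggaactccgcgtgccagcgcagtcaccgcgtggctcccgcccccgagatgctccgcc

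Per length of annotated exon, Hexim1 was the most abundant of the 9. It had 488 ± 124 normalized counts per exonic kb in SPI-24 and 528 ± 173 in DMSO (SD, n = 5 each). The next were the scaffold gene Aff4, with 189 ± 18.7 per kb in SPI-24 and 183 ± 52.7 in DMSO, and the kinase gene Cdk9, with 184 ± 31.5 and 163 ± 29.4 in the same groups. Hexim1 lay above Aff4 in 10 of 10 libraries, by a median of 1.18 on the log2 scale per kb. Aff4 lay above Cdk9 in 6 of 10, so these neighbours were not separated beyond their spread. Cdk9 was above the fourth gene, Larp7, in 9 of 10 libraries, by a median of 1.07. By their medians Larp7, Ell, Ell2, Ccnt1, Ccnt2 and Aff1 followed in this order, between 90.8 and 36.8 per kb. Among these the next gene in the order was exceeded in 5 of 10 libraries for Larp7 over Ell and for Ell over Ell2, in 6 for Ell2 over Ccnt1, in 9 for Ccnt1 over Ccnt2 and in 8 for Ccnt2 over Aff1. The median gaps between these neighbours were 0.09 to 0.28 on the log2 scale.

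**Figure D1:**
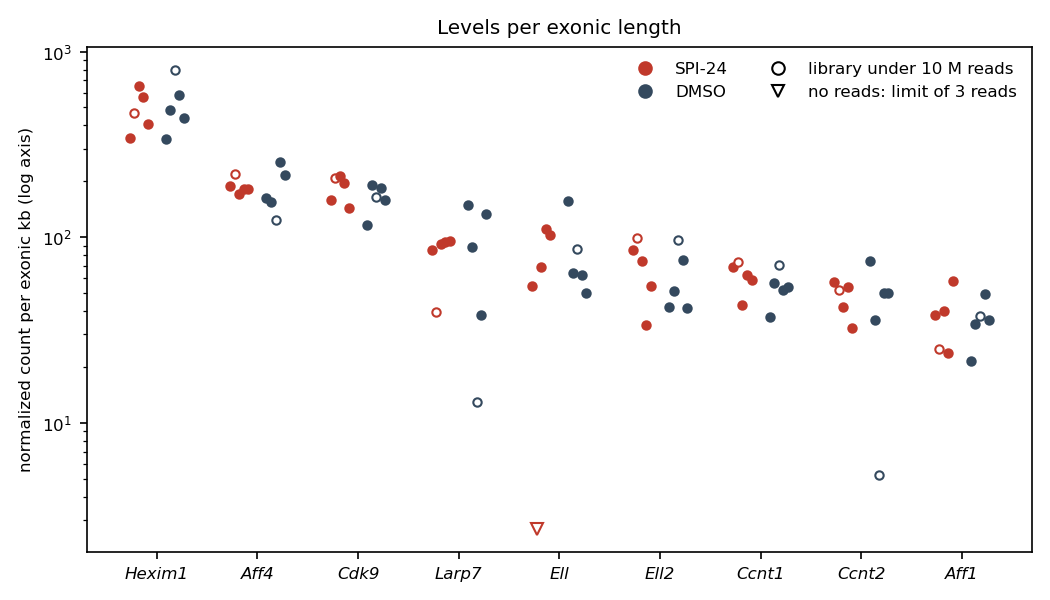
Level of each gene in each library, as normalized count per exonic kb on a log axis, with SPI-24 libraries in red to the left of DMSO libraries in dark blue and open symbols for the 2 libraries under 10 M reads. Hexim1 lies above all other genes in every library, and the open triangle marks the limit of 3 reads (2.67 per kb) for Ell in SPI-24 replicate 2, which had no read of it.

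Cdk9, the catalytic subunit of P-TEFb, lies on chromosome 2 from 32705784 to 32713076 (GRCm38, - strand). Its normalized counts were 731, 966, 988, 902 and 662 in SPI-24 replicates 1 to 5, and 537, 883, 759, 852 and 737 in DMSO replicates 1 to 5. DMSO replicate 1 was the lowest of all and the groups overlapped over most of their range. The means were 849.8 ± 145 in SPI-24 and 754 ± 135 in DMSO (SD, n = 5 each). The log2 fold change was 0.18 (standard error 0.21, 95% interval -0.28 to 0.63, limma adjusted p = 0.999), or 0.82 to 1.55-fold. Cdk9 was the most even of the 9 genes. Its SD within groups, 0.27 on the log2 scale, was above that of 11.9% of genes averaging at least 100 normalized counts.

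Cyclin T1, encoded by Ccnt1 on chromosome 15 from 98538689 to 98570923 (- strand), is the partner of CDK9 in most P-TEFb of many cell types. Ccnt1 had 634, 672, 394, 571 and 542 normalized counts in SPI-24 replicates 1 to 5, and 342, 522, 646, 477 and 492 in DMSO replicates 1 to 5. DMSO replicate 1 was again the lowest, and SPI-24 replicate 3 stood below 4 of the 5 DMSO libraries. With means of 563 ± 107 in SPI-24 and 496 ± 108 in DMSO, its log2 fold change was 0.19 (standard error 0.26, 95% interval -0.37 to 0.74, limma adjusted p = 0.999). The antisense gene 9330020H09Rik overlaps it. The libraries were prepared with a stranded kit, but the sources used here do not give the strand setting of the counting.

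Ccnt2, the gene of the alternative cyclin T2, lies on chromosome 1 from 127774164 to 127808061 (+ strand). Its values of 711, 639, 520.5, 666 and 401 normalized counts in SPI-24 replicates 1 to 5 were close together. In DMSO replicates 1 to 5 it had 924, 440.1, 64.9, 615 and 619.9, so that both the highest and the lowest library were DMSO. DMSO replicate 3 held 19 reads of Ccnt2, with an exact 95% Poisson interval of 39.1 to 101 normalized counts that covers counting error only. The log2 fold change over the 10 libraries was 0.53 (standard error 0.56, 95% interval -0.66 to 1.72, limma adjusted p = 0.999). Without DMSO replicate 3 it was -0.12 (95% interval -0.70 to 0.45, adjusted p = 0.958), with means of 588 ± 126 in SPI-24 (n = 5) and 650 ± 201 in DMSO (n = 4). DMSO replicate 3 also had the lowest level of the medium spiny neuron list, with a deviation of -3.08 log2 units from the mean of the 10 libraries, and DMSO replicate 1, the highest for Ccnt2, deviated by 3.04. SPI-24 replicate 5, with a deviation of 3.22, had the fewest counts of Ccnt2 in its group. The mean level of the list was nearly equal in the groups, at 0.0030 in SPI-24 and -0.0030 in DMSO, and its part in the values of single libraries was not tested. With choroid plexus and ependymal markers as a covariate the log2 fold change of Ccnt2 was 0.77, and on recovered reads it was 0.14 by edgeR and by DESeq2 and 0.084 by limma-voom.

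**Figure D2:**
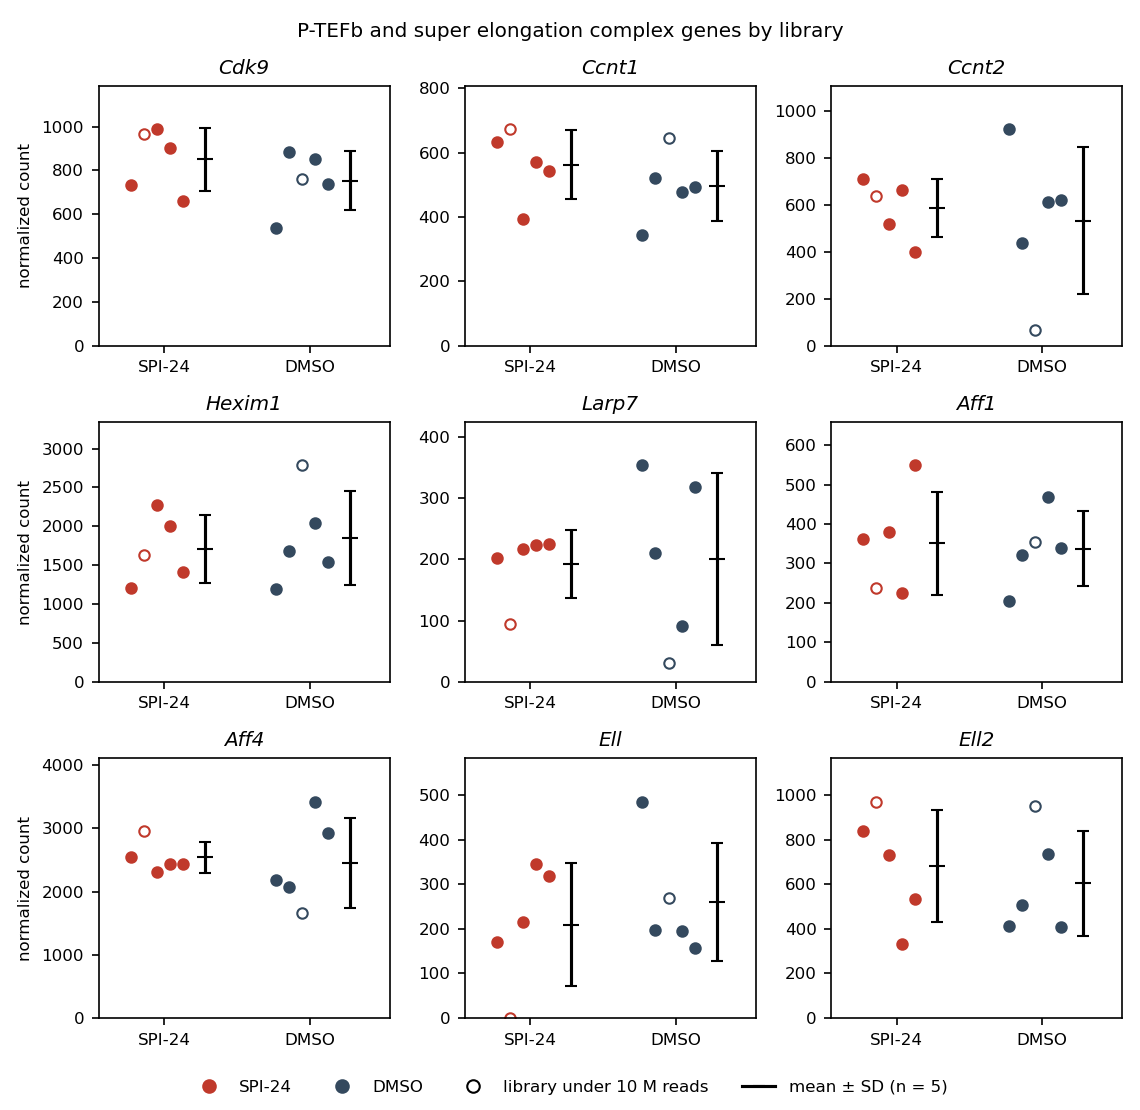
Normalized counts of the 9 genes in each library, SPI-24 in red and DMSO in dark blue, with the mean and SD of each group (n = 5) beside its points and open symbols for the libraries under 10 M reads. The groups overlap in every panel, and the lowest points of Ccnt2 and Larp7 (DMSO replicate 3) and of Ell (SPI-24 replicate 2) are libraries under 10 M reads.

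Hexim1, an intronless gene on chromosome 11 from 103116231 to 103119725 (+ strand), encodes the inhibitor that silences CDK9 in the 7SK particle. It had 1202, 1632, 2279, 1999 and 1418 normalized counts in SPI-24 replicates 1 to 5, and 1188, 1687, 2782, 2039 and 1537 in DMSO replicates 1 to 5. The 2 groups covered nearly the same range, and the highest value was that of DMSO replicate 3. Means were 1706 ± 435 in SPI-24 and 1847 ± 606 in DMSO. The log2 fold change was -0.09 (standard error 0.24, 95% interval -0.60 to 0.41, limma adjusted p = 0.999), or 0.66 to 1.33-fold. With choroid plexus and ependymal markers as a covariate it was -0.20, again not called. The gene is named for its induction by hexamethylene bisacetamide, a compound that frees P-TEFb from the particle.

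Larp7 encodes the protein that binds the end of the 7SK RNA and keeps it stable, and lies on chromosome 3 from 127536714 to 127553349 (- strand). SPI-24 replicates 1 to 5 had 203, 94.1, 217, 224 and 226 normalized counts of Larp7, and DMSO replicates 1 to 5 had 353, 211, 30.8, 90.4 and 318. All SPI-24 libraries but replicate 2 lay within 203 to 226, whereas the DMSO libraries spread over 11.5-fold. The value of DMSO replicate 3 rested on 9 reads (exact 95% Poisson interval 14.1 to 58.4 normalized counts) and that of SPI-24 replicate 2 on 34 reads (65.1 to 131). DMSO replicate 4, the second deepest library, had 188 reads and was also low. The log2 fold change was 0.33 (standard error 0.68, 95% interval -1.13 to 1.79, limma adjusted p = 0.999), and without DMSO replicate 3 it was -0.23 (95% interval -1.32 to 0.86, adjusted p = 0.958). On the linear scale the means were 193 ± 55.8 in SPI-24 and 200.5 ± 139.7 in DMSO, the other way round from the mean of the logs. The genes of the miR-302 cluster lie within Larp7 on the other strand.

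Neither of the scaffold genes of the super elongation complex was called as different between groups. Aff4, on chromosome 11 from 53350833 to 53421830 (+ strand), had 2549, 2963, 2306, 2444 and 2444 normalized counts in SPI-24 replicates 1 to 5 and 2189, 2072, 1661, 3423 and 2928 in DMSO replicates 1 to 5. All SPI-24 values lay inside the range of the DMSO values. Its log2 fold change of 0.09 had the narrowest interval of the 9 genes, from -0.32 to 0.50 (standard error 0.19, limma adjusted p = 0.999), with means of 2541 ± 251 in SPI-24 and 2455 ± 709 in DMSO. Aff1, the second scaffold gene, on chromosome 5 from 103692374 to 103855322 (+ strand), was lower per kb than Aff4 in 10 of 10 libraries. It had 361, 238, 381, 225 and 548 normalized counts in SPI-24 replicates 1 to 5, and 205, 321, 355, 468 and 339.7 in DMSO replicates 1 to 5. SPI-24 replicate 5 was the highest and DMSO replicate 1 the lowest. The log2 fold change of Aff1 was 0.02 (standard error 0.36, 95% interval -0.75 to 0.80, limma adjusted p = 0.999), with means of 351 ± 131 in SPI-24 and 338 ± 94.0 in DMSO.

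Ell, the gene of an elongation factor that suppresses pausing of the polymerase along the gene, lies on chromosome 8 from 70539457 to 70592858 (+ strand). In SPI-24 replicates 1 to 5 it had 169, 0, 216, 344 and 319 normalized counts, and in DMSO replicates 1 to 5 it had 485, 198, 270.0, 195 and 156. Apart from the library at 0 the groups overlapped, and the highest value was that of DMSO replicate 1. SPI-24 replicate 2 held no read of Ell, which allows up to 3 reads or 8.30 normalized counts (the limit used here for a count of 0), at least 18.8-fold lower than the lowest of the other 9 libraries. At the mean of the other SPI-24 libraries, 262 normalized counts, 94.7 reads would have been counted there. That library had 0 reads for 2.57% of genes averaging at least 100 normalized counts. The fitted log2 fold change of Ell, -1.53 (standard error 1.31, 95% interval -4.32 to 1.27, limma adjusted p = 0.999), depends on the count of 1 added before taking logs, and without SPI-24 replicate 2 it was 0.070 (95% interval -0.88 to 1.02). On recovered reads it was -0.29 by edgeR, -0.31 by DESeq2 and -0.38 by limma-voom. Means without that library were 262 ± 83.1 in SPI-24 (n = 4) and 261 ± 132 in DMSO (n = 5).

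Ell2, whose product is the partner of AFF4 in many cell types and drives changes of RNA processing in plasma cells, lies on chromosome 13 from 75706757 to 75772364 (+ strand). Its normalized counts were 842, 971, 731, 332 and 534 in SPI-24 replicates 1 to 5, and 414, 506, 954, 738 and 409 in DMSO replicates 1 to 5. SPI-24 replicate 4 was the lowest of all libraries, and the highest in each group was the library with the fewest reads. The means were 682 ± 253 in SPI-24 and 604 ± 237 in DMSO, and the log2 fold change was 0.16 (standard error 0.33, 95% interval -0.55 to 0.88, limma adjusted p = 0.999). The antisense gene 1700037F03Rik overlaps Ell2.

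**Figure D3:**
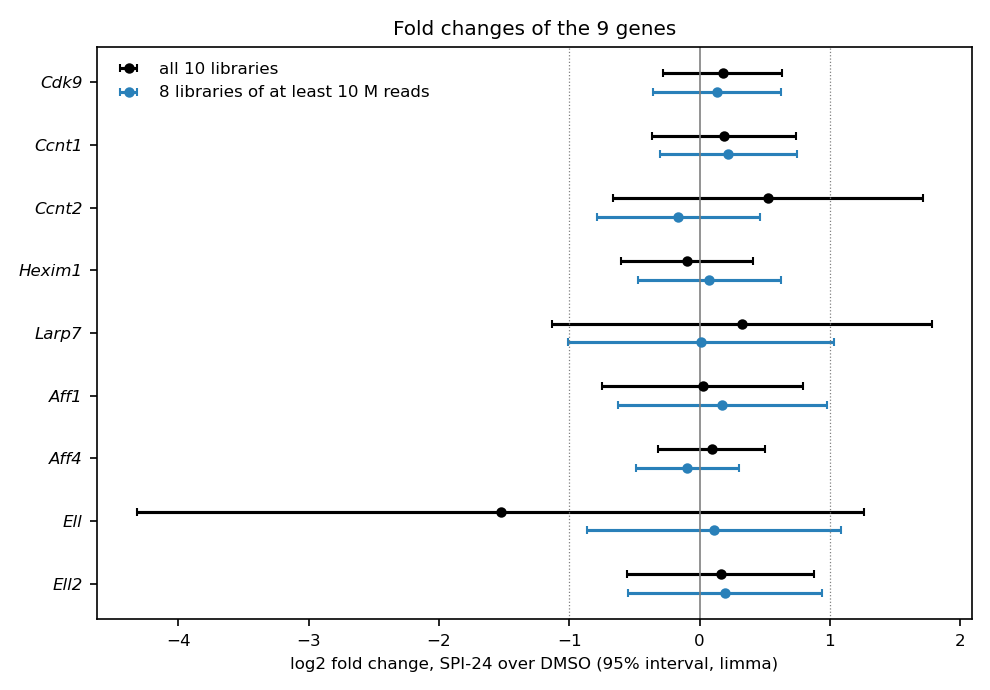
Log2 fold changes of SPI-24 over DMSO with 95% intervals from limma, over all 10 libraries (black) and over the 8 libraries of at least 10 M reads (blue), with dotted lines at a 2-fold change. The interval of Ell shrinks from -4.32 to 1.27 over all libraries to -0.86 to 1.09 over the 8, and every interval in either color includes 0.

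Of the 9 fold changes, 7 were above 0 and 2 (Hexim1 and Ell) below, beside 50.2% above 0 among all genes tested. Their median was 0.16 on the log2 scale, against 0.00 over all genes tested. Restricted to the 8 libraries of at least 10 M reads, none was called either, beside 0 of 15871 genes tested. Ccnt2, Hexim1, Aff4 and Ell then had the other sign, with log2 fold changes of -0.16, 0.076, -0.093 and 0.11. The signs of Ccnt2, Hexim1, Larp7 and Aff4 turned without DMSO replicate 3 alone.

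The 9 genes differed in how evenly they were measured. Among genes averaging at least 100 normalized counts, the SD within groups was above that of 18.2% for Aff4, 19.4% for Ccnt1, 37.2% for Hexim1, 47.4% for Aff1 and 58.9% for Ell2. It was above that of 84.3% for Ccnt2, 84.5% for Larp7 and 95.5% for Ell. DMSO replicate 3 departed from the gene's median over the 10 libraries by -3.23 for Ccnt2 and -2.76 for Larp7, but by 0.74 for Hexim1 and 0.61 for Ell2, on the log2 scale. DMSO replicate 1 departed by -0.58 for Cdk9, -0.63 for Ccnt1 and -0.76 for Aff1, and by 1.23 for Ell and 0.72 for Larp7. The library with the most reads, DMSO replicate 5, departed by -0.61 (Ell2) to 0.57 (Larp7).

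**Figure D4:**
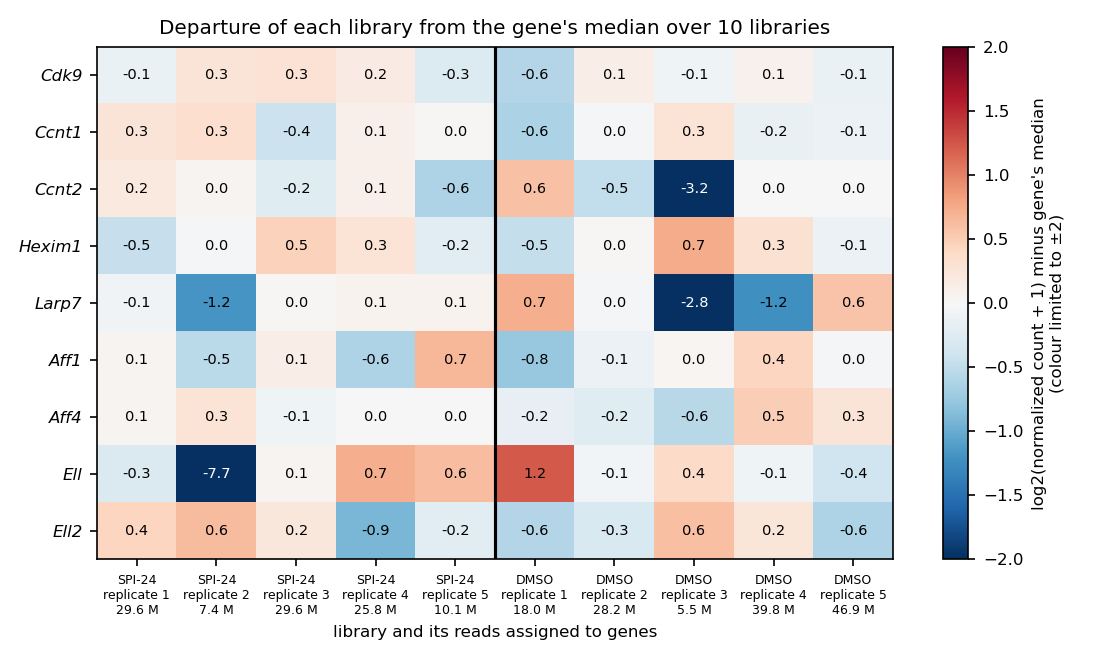
Departure of each library from the gene's median over the 10 libraries on the log2(normalized count + 1) scale, SPI-24 libraries left of the line and DMSO libraries right of it, with reads assigned to genes under each. The largest departures are those of Ell in SPI-24 replicate 2 and of Ccnt2 and Larp7 in DMSO replicate 3, the 2 shallowest libraries.

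Ratios between members were taken within each library after adding 1 to both normalized counts, so that the depth factor nearly cancels except where a count is near 0. Hexim1 over Cdk9, the inhibitor against the kinase, had log2 ratios of 0.72, 0.76, 1.21, 1.15 and 1.10 in SPI-24 replicates 1 to 5, and 1.14, 0.93, 1.87, 1.26 and 1.06 in DMSO replicates 1 to 5. SPI-24 replicates 1 and 2 lay below every DMSO library and the other 3 within the DMSO range. The mean was 0.98 ± 0.23 in SPI-24 and 1.25 ± 0.37 in DMSO, a difference of -0.27 (two-sided exact permutation test over 252 assignments, p = 0.198, adjusted p = 0.873 over the 5 ratios). It was the ratio with the smallest p of the 5 and kept its sign whichever library was left out, but the difference was -0.11 without DMSO replicate 3 and -0.057 in the 8 libraries of at least 10 M reads. Larp7 over Cdk9 differed by 0.15 (exact p = 0.873), Ccnt2 over Ccnt1 by 0.34 (exact p = 0.841), Aff1 over Aff4 by -0.07 (exact p = 0.857) and Ell2 over Ell by 1.69 (exact p = 0.556). The last rested on the library without Ell reads and was -0.059 without it. All 5 had an adjusted p of 0.873, where the smallest p this design allows is 0.00794.

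**Figure D5:**
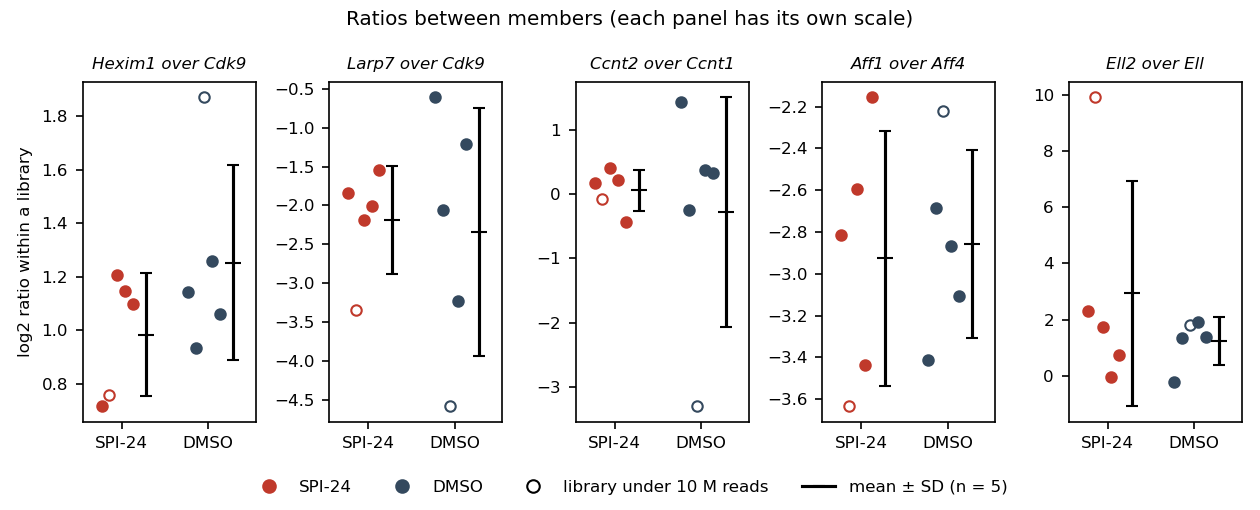
Log2 ratios of 2 genes within each library, SPI-24 in red and DMSO in dark blue, with the mean and SD of each group (n = 5) and open symbols for the libraries under 10 M reads. Each panel has its own scale, and in all 5 the groups overlap.

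Other genes of the pathway were read from lists, and none of their members was called. Of 12 other genes of the 7SK particle and of P-TEFb release, 6 were above and 6 below 0, with a median log2 fold change of 0.03. The smallest p among them was that of Mepce, the enzyme that caps the 7SK RNA, with 772 ± 144 normalized counts in SPI-24 and 584 ± 136 in DMSO (log2 fold change 0.41, 95% interval -0.09 to 0.91, limma adjusted p = 0.999). Ddx21, a helicase that releases P-TEFb from the particle, had 293 ± 87.9 in SPI-24 and 404 ± 72.4 in DMSO (log2 fold change -0.50, 95% interval -1.22 to 0.21). The 7SK RNA itself has no poly(A) tail, so its row was only counted in the list and no value is given from these poly(A)-selected libraries.

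Of 10 further genes of the super and little elongation complexes tested, 3 were above 0 and 7 below, with a median of -0.24. Aff2, Eaf2, Med26, Ice2 and Zc3h8 among them had no read in at least 1 library. Their fitted fold changes, and with them these counts and the median, depend on the count added before taking logs. Mllt3, whose product AF9 reads acetylated histones for the complex, had 433 ± 133 normalized counts in SPI-24 and 624 ± 221 in DMSO (log2 fold change -0.52, 95% interval -1.15 to 0.12). Aff3, a relative of the scaffold genes, had 671 ± 250 in SPI-24 and 462 ± 204 in DMSO (log2 fold change 0.62, 95% interval -0.25 to 1.49).

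The list of P-TEFb substrates held 7 genes, among them Supt4a, the gene of Spt4, which is listed as the partner of Spt5 in DSIF. Of the 7, 5 were above 0 and 2 (Supt4a and Nelfcd) below, with a median of 0.16. Nelfb, a subunit of NELF, had 1157 ± 206 normalized counts in SPI-24 and 876 ± 246 in DMSO (log2 fold change 0.43, 95% interval -0.06 to 0.91). Nelfa, another subunit, had 167 ± 105 in SPI-24 and 139 ± 87.5 in DMSO. It had no read in DMSO replicate 3, and no fitted fold change is given for it, since that depends on the count added before taking logs. Supt5, the gene of Spt5, at which SPI-24 is directed, had 1541 ± 298 in SPI-24 and 1499.9 ± 229 in DMSO. Its log2 fold change was 0.03 with a 95% interval from -0.36 to 0.42, inside a 2-fold change.

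The other kinases and phosphatases of the polymerase tail numbered 15, of which 9 were above and 6 below 0, with a median of 0.09. Cdk7 and Cdk8 among them had no read in at least 1 library, so their fitted fold changes depend on the added count. Ccnh, the cyclin of the TFIIH kinase, had 828 ± 105 normalized counts in SPI-24 and 580 ± 275 in DMSO (log2 fold change 0.72, 95% interval -0.11 to 1.55). Cdk19, a kinase of the Mediator complex, had 1952 ± 627 in SPI-24 and 1542 ± 544 in DMSO (log2 fold change 0.36, 95% interval -0.19 to 0.91). Of 8 rapidly induced genes that are often used to read pause release, 6 were above 0, with a median of 0.22. Fos, Ier2, Myc, Hspa1a and Hspa1b among them had no read in at least 1 library. Their fitted fold changes, and with them this count and median, depend on the count added before taking logs. Mcl1, a short-lived survival protein, had 1369 ± 361 in SPI-24 and 1183 ± 152 in DMSO (log2 fold change 0.18, 95% interval -0.25 to 0.61). The heat shock gene Hspa1b had 94.1 ± 62.5 in SPI-24 and 68.6 ± 85.6 in DMSO, with no read in SPI-24 replicate 5 and DMSO replicates 1 and 3, and no fitted fold change is given for the same reason. Its level is uncertain, since reads that also match its near-identical copy Hspa1a were discarded. Adjusted p from limma was 0.999 for each gene named from these lists.

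For each member, the gene whose log2 values followed it most closely over the 10 libraries, after centring within each group, was found among the 6272 genes averaging at least 500 normalized counts. Pearson's r was 0.97 for Cdk9 with Map4k2, 0.94 for Ccnt1 with Magt1, 0.98 for Ccnt2 with Thrap3, 0.97 for Hexim1 with Extl3 and 0.94 for Larp7 with Ube2e1. It was 0.90 for Aff1 with Qk, 0.95 for Aff4 with Vldlr, 0.99 for Ell with Xpo7 and 0.97 for Ell2 with Vamp7. These are descriptions over libraries that differ in depth and in cell types, picked as the highest of many. Xpo7, the closest to Ell, had 202 normalized counts in SPI-24 replicate 2, where Ell had no read, and 991 to 1529 in the other 9 libraries. Thrap3, the closest to Ccnt2, had 345 in DMSO replicate 3 and 478 to 847 in the others.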

How the data were processed

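RNA of striatum punches from 10 BACHD mice (5 SPI-24, 5 DMSO) was sequenced by the authors, who named cutadapt, STAR, HTSeq and DESeq2 and the build GRCm38 (tool versions not given in the sources used here) and discarded multi-mapped reads. The deposited signal of a gene is its read count divided by the authors' DESeq2 size factor of the library. Its further columns, the authors' own log2 fold changes, mean levels and p-values, were not used. The table has 0 sample columns of no sample. Whole reads were recovered for 154521 of 154521 values above 0, within 0.1 of a read. The libraries held 5.48 to 46.9 M reads, and intervals and limits (3 reads) cover counting error only.

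Groups were compared with limma 3.58.1 with trend (R 4.3.3) on log2(normalized count + 1), for 15871 genes with a mean of at least 10, without covariates, with Benjamini-Hochberg adjustment and a threshold of 0.05. The added 1 understates changes of genes that are low in all libraries. Where a library had no read, the fitted change depends on the added count and can be larger than on recovered reads. For Ell the log2 fold change was -1.53, against -0.29 by edgeR, -0.31 by DESeq2 and -0.38 by limma-voom. This design was written for values that are not counts as deposited. Alternatives included edgeR 4.0.16, limma-voom and DESeq2 1.42.0 on recovered reads, other filters, scalings, covariates and subsets of libraries, and DESeq2 without outlier handling and independent filtering, added after seeing the data. Ratios used exact permutation tests. The fit was also run on simulated counts as a check of the code, only for genes averaging at least 100 reads. Lower genes were not simulated.

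The 9 genes and all lists were chosen with earlier results of these data known. Named were the 9 genes, Supt5, the genes of each pathway list with an unadjusted p under 0.05 or else the 2 with the smallest p, and the most similar gene of each member. Xpo7 and Thrap3 are described further after their values were seen. The Rn7sk row was counted in its list. The marker lists also held cortical, ependymal, oligodendrocyte, astrocyte, microglia and endothelial genes. Coordinates and exonic lengths are those of GENCODE M21 (GRCm38), in which 99.9% of gene IDs were found. Promoters are RefSeq's.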

Additional observations from a re-analysis of the deposited data

Results flagged for a closer look

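Samples far from the rest of their group of 5 were looked for in 28 sets, the 9 genes and 5 ratios in each group, by setting the gap to the nearest library against the range of the group on the log2 scale (critical value 0.71). Chance marks about 1 set in 20, and 5 were marked. The sets are not independent, since the ratios reuse the values of the genes. The mark of Ell2 over Ell in SPI-24 replicate 2 rests on the same count of 0 as that of Ell. Larp7 in SPI-24 replicate 2, at a log2 value of 6.57 against 7.67 to 7.82 in the other SPI-24 libraries, had a share of 0.877. Ell in SPI-24 replicate 2, without reads and at 0 against 7.41 to 8.43, had 0.879. Ccnt2 in DMSO replicate 3, at 6.04 against 8.78 to 9.85, had 0.72. The ratio of Ell2 over Ell was marked as the highest in SPI-24 replicate 2, with 0.763, and as the lowest in DMSO replicate 1, with 0.734. In 4 of the 5 the library was one of the 2 with the fewest reads, and the part that depth plays in them was not tested.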

How the results depend on the processing

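Over 24 alternatives to the fit, 0 of 9 genes were called in each and none had an unadjusted p under 0.05, the smallest being 0.165 and the smallest adjusted p 0.921. Over all genes, edgeR and limma-voom called 0 as limma did, DESeq2 3 and DESeq2 without outlier handling and independent filtering 17, none of them a member. The median log2 fold change of the 9 genes ran from 0.05 to 0.20 with 1 library left out and from 0.05 to 0.17 otherwise. With 10 normalized counts required in every library Ell gave no value. Cdk9, Ccnt1 and Ell2 were above 0 in every alternative but moved with 1 library left out, over 0.060 (without DMSO replicate 1) to 0.26 for Cdk9, 0.062 (without DMSO replicate 1) to 0.31 for Ccnt1 and 0.011 (without SPI-24 replicate 2) to 0.40 for Ell2.

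Signs turned for the other 6. In the libraries of at least 10 M reads Ccnt2 was -0.16, Hexim1 0.076, Aff4 -0.093 and Ell 0.11, and the ratios Larp7 over Cdk9, Ccnt2 over Ccnt1 and Aff1 over Aff4 differed by -0.12, -0.38 and 0.27. With 1 library left out, the ranges were -0.12 to 0.83 for Ccnt2, -0.24 to 0.070 for Hexim1, -0.23 to 0.64 for Larp7, -0.16 to 0.16 for Aff1, -0.036 to 0.22 for Aff4 and -2.04 to 0.070 for Ell, and for the ratios -0.41 to 0.58 (Larp7 over Cdk9), -0.41 to 0.77 (Ccnt2 over Ccnt1), -0.26 to 0.11 (Aff1 over Aff4) and -0.059 to 2.44 (Ell2 over Ell). Larp7 was -0.063 by edgeR and -0.062 by DESeq2 and by DESeq2 without outlier handling and independent filtering, and limma-voom gave -0.084 for Aff1 and -0.011 for Aff4. The cause was not tested beyond leaving out libraries.

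With the replicate number as a replicate block, 0 of 9 genes were called, beside 0 of 15871 genes tested, and the median stayed 0.16. Deviations of same-numbered libraries correlated at -0.29 to 0.42 over 6272 genes, and 1 of 5 SPI-24 libraries correlated best with its own number. The labels give a number and no pairing. With 5 such correlations, over libraries that differ in depth and cell types, it cannot be decided whether same-numbered samples shared a batch. In DMSO replicate 3, 1 read is 3.42 normalized counts, and in SPI-24 replicate 2, which had no read of Ell, it is 2.77. The intervals of Ccnt2, Larp7 and Ell (0.63 to 3.29-fold, 0.46 to 3.45-fold and 0.05 to 2.40-fold) leave differences well beyond 2-fold undetected at the depth and spread of these libraries.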
